A study of Mus musculus with 24 samples.

Results

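Endothelial cells were sorted from mouse brain slices that had received exosomes called wild type (WT), and their RNA was compared with that of endothelial cells from slices given phosphate-buffered saline (PBS). Exosomes are small membrane vesicles released by cells, and the series concerns the protein CEMIP, which helps to break down hyaluronan, carried by exosomes of tumour cells. The comparison held 5 of the 24 samples named in the labels: the libraries WT A and WT B against PBS A, PBS B and PBS C, chosen by label and by no measured value. The WT slices had 5 µg of exosomes each for 2 days, dyed with the green membrane dye PKH67, and the PBS slices had 0 µg. In both groups the outer part of the slice was dissected, digested with Dispase and Collagenase and cleared of myelin, and living cells negative for CD45 and positive for CD31 were sorted. The labels describe all of these samples as sorted for exosome signal, although the PBS slices received none, so the gate applied to the PBS cells is unclear. They give no strain, age or genotype of the mice, do not name the cells that released the WT exosomes, and do not say what the letters A, B and C stand for. A p-value here thus speaks of the scatter among the libraries, part of which can be technical. The sample WT C was not analysed here.

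Brain endothelial cells line the vessels of the brain and form the blood-brain barrier, which they keep closed with tight junctions and supply through dedicated transporters. They also answer inflammatory signals: interferons acting on their receptors switch on antiviral and antigen presentation genes through STAT and IRF transcription factors, and cytokines induce prostaglandin synthesis, chemokines and adhesion molecules. Levels below are normalised counts recovered from the deposited log2 values, and they can be compared between libraries but not between genes. Differences written as log2 are on the deposited, variance-stabilised scale, with the standard error (SE) of a limma fit. That scale is compressed: a 2-fold change spans 0.06 log2 from a level of 100 counts, 0.186 from 1000 and 0.512 from 10000.

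The libraries differed in estimated depth and in how well they matched their partners. They held 25.7 to 28.0 M normalised counts and an estimated 18.3 to 30.0 M reads. WT A and WT B had 9235 and 10607 genes above the floor of the table, against 11305, 11952 and 11668 in PBS A, B and C. The mean difference was -1720.7 genes, with an exact two-sided permutation p of 0.2, the smallest that 2 against 3 libraries allow. Across the 9264 genes with a mean of at least 100 counts, WT A and WT B lay at least 2-fold apart for 48.2%, whereas pairs of PBS libraries did so for 17.1 to 20.5%. Pairs of a WT and a PBS library lay at least 2-fold apart for 33.3 to 47.6% of these genes. The WT libraries thus differed from each other by as much as from PBS. Between WT A and WT B, 5.6% of genes of 10000 counts and above lay at least 2-fold apart, and 79.4% of genes of 100 to 500 counts.

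**Figure D1:**
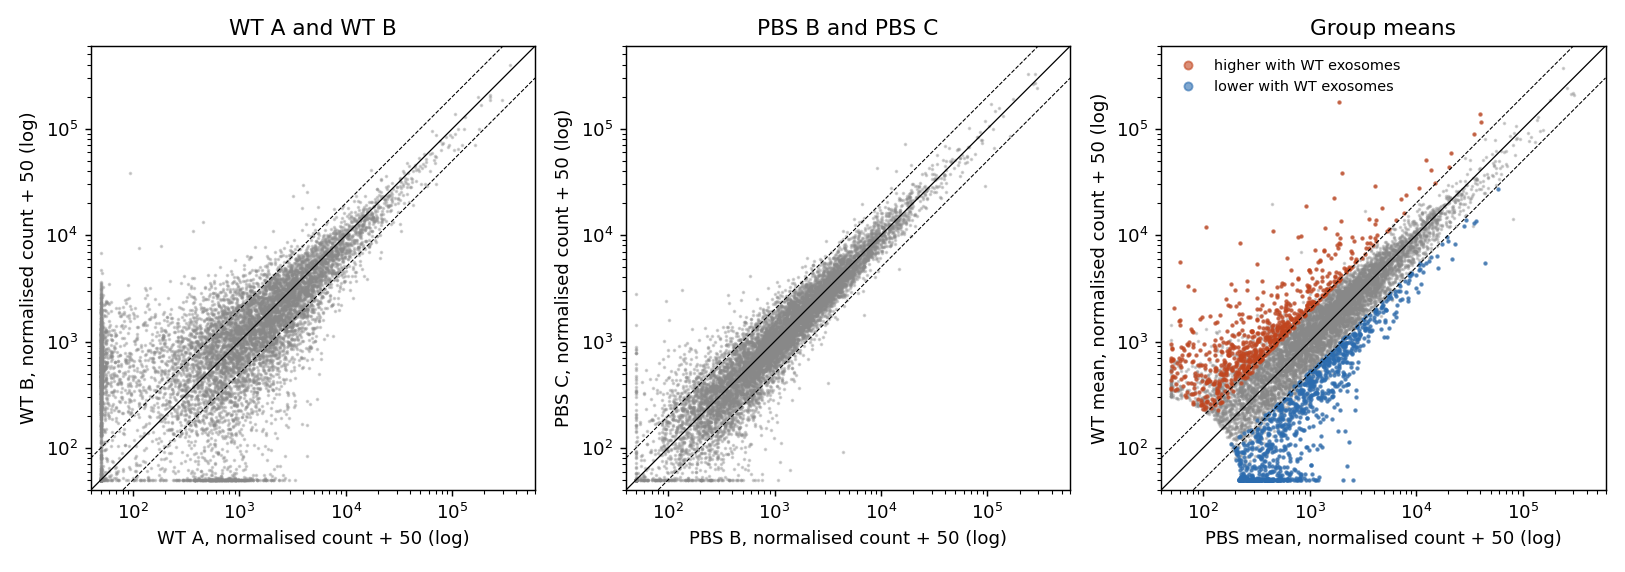
Normalised counts plus 50 on log axes for genes with a mean of at least 100 counts: WT A against WT B (left), PBS B against PBS C (middle) and the group means (right). The solid line marks equality and the dashed lines 2-fold; coloured points on the right are the 737 genes higher and 964 genes lower with WT exosomes whose libraries do not overlap. The WT pair scatters more widely than the PBS pair.

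The sorted cells were checked against markers of the cell types that the gate could hold. Pecam1, which encodes CD31, stood at 56200 and 51613 counts in WT A and B and at 42620, 48788 and 42939 in PBS A, B and C, and Ptprc, the gene of CD45, was at 0 throughout. The 15 endothelial markers summed to 313987 to 383265 counts, with no order between the groups. Choroid plexus and ependyma markers did separate the groups. They summed to 239149 and 208098 counts in the WT libraries, against 3978, 7452 and 995 in PBS A, B and C. That is 0.877% and 0.809% of all counts with WT exosomes and 0.0142%, 0.0289% and 0.00374% with PBS. Of the 17 markers, 13 and 12 reached 100 counts in WT A and B and 3, 3 and 1 in the PBS libraries. Besides Ttr, Enpp2 and Ecrg4 these included Folr1, the folate receptor of the choroid plexus, at 690 and 508 counts with WT and 0, 33.3 and 0 with PBS, and Slc4a5, a bicarbonate cotransporter, at 530 and 299 against 0, 0 and 2.73. Ttr and Enpp2 made up most of each WT sum. Some markers reached 100 counts in 1 WT library only. Among them were Sostdc1 at 973 and 0 counts in WT A and B, Kcnj13 at 0 and 891, and Foxj1 at 0 and 112. Ccdc153 stood at 1.05 and 0. In bulk libraries, more cells of a type and more RNA per cell cannot be told apart. The part of choroid plexus RNA in the differences of the gene lists below was not tested for any list.

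Microglia markers summed to 1188 and 4207 counts in the WT libraries, against 1063, 939 and 780 in PBS A, B and C. The defining markers P2ry12 and Sall1 were listed at 0 in all 5 libraries and Tmem119 reached 3.18 counts in WT A and 0 elsewhere. Border-associated macrophage markers summed to 8314 and 8049 counts with WT and to 10790, 8559 and 12901 with PBS, and most of each sum was Stab1, a scavenger receptor for hyaluronan fragments that some endothelia also carry. WT B stood apart from the other libraries. It alone held Itgam, which encodes CD11b, at 1226 counts (0 to 9.58 elsewhere), C1qb at 800 (0 to 9.68) and Tyrobp at 957 (0 to 35.4). Its pericyte and smooth muscle markers summed to 8467 counts and its fibroblast markers to 3016, above the 1510 to 4595 and 523 to 1619 of the other libraries. Itga4, which encodes CD49d, lay at 401 and 260 counts with WT and at 82.3, 36.9 and 232 with PBS. Mouse Cemip itself was scarce, at 0 and 12.9 counts with WT and 0, 1.37 and 66.2 with PBS, so no transcript of it was detectable beyond that spread.

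**Figure D2:**
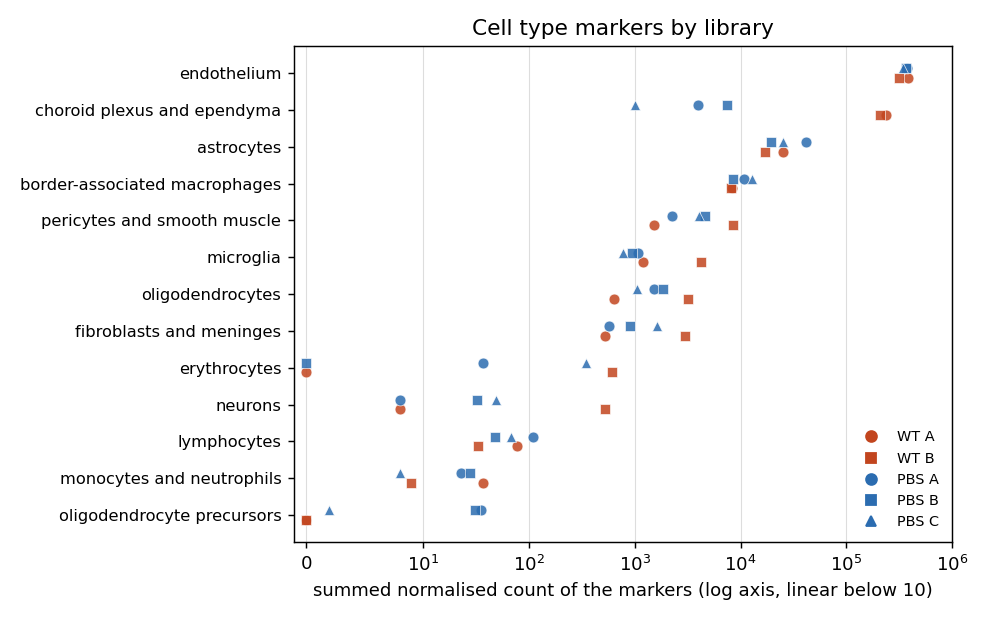
Summed normalised counts of 13 lists of cell type markers in each library, on an axis that is logarithmic above 10 and linear below. Orange points are WT libraries and blue points PBS libraries. The choroid plexus and ependyma sums separate the groups, with 208098 counts or more in the WT libraries and 7452 or less in the PBS libraries, and WT B holds the highest sums of microglia, pericyte, oligodendrocyte and fibroblast markers.

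The test over all varying genes called 1 gene. Of 13507 genes, 1 passed an adjusted p of 0.05 as higher with WT exosomes (0.00740% of those tested) and 0 as lower, where the smallest adjusted p was 0.117 (limma). At an unadjusted p under 0.05 there were 2006 genes, 703 higher and 1303 lower, or 14.9% of those tested. Ttr, which encodes transthyretin, the thyroid hormone carrier that the choroid plexus secretes, was that gene. It stood at 186101 and 168508 counts in WT A and B and at 1204, 4307 and 42.1 in PBS A, B and C, and the groups were far apart. The log2 difference was 3.79 (SE 0.23, 95% interval 3.22 to 4.37, limma adjusted p = 0.0493), a 95.8-fold ratio of means. The call was lost when any 1 of the PBS libraries was left out, with a limma adjusted p of 0.0824 to 0.25 for Ttr, and 0 genes passed. A fit without WT A or WT B leaves 1 WT library, so its p-values cannot measure the scatter of WT libraries. The log2 difference of Ttr was 3.73 without WT A and 3.86 without WT B.

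Among the 1063 genes expressed strongly enough to lie at least 1 log2 unit above the floor, 8 passed as higher with WT exosomes (0.753%) and 4 as lower (0.376%; limma with Benjamini-Hochberg adjustment). Those higher were Ttr, Enpp2, Lgals3bp, Ptgs2, Irf7, Cxcl2, Col18a1 and Lcn2, and those lower were Zfand2a, Plat, Prom1 and Klhl21. In all 12 the WT and PBS libraries did not overlap. Ttr and Enpp2 also passed in each fit that left out 1 PBS library, and Lgals3bp without PBS A or PBS B but not without PBS C. The other 9 passed without PBS B. None of the 9 passed without PBS A or without PBS C, with limma adjusted p of up to 0.159. Fits without WT A or WT B leave 1 WT library and are not read here. Where every gene with a mean of at least 100 counts was tested instead, 9 passed as higher (0.0972%) and 2 as lower (0.0216%), and 3 genes were called in both.

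**Figure D3:**
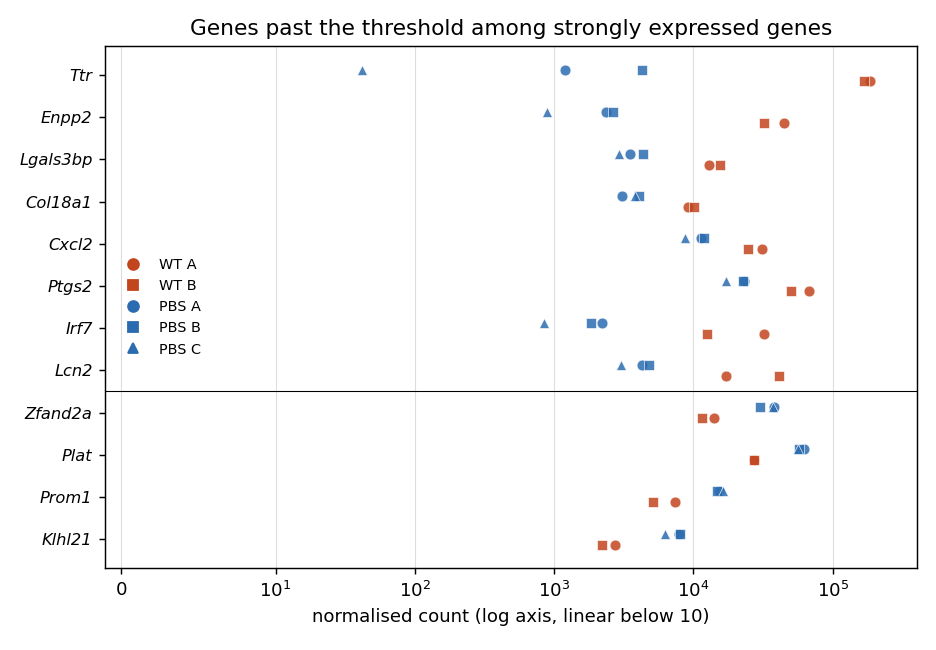
Normalised counts per library, on an axis that is logarithmic above 10 and linear below, of the 12 genes past the threshold among strongly expressed genes: 8 higher with WT exosomes (above the line) and 4 lower (under it). Orange points are WT libraries and blue points PBS libraries. The groups do not overlap for any of them, and the gap is widest for Ttr and Enpp2.

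Because so few genes passed, groups of genes are described by counts of separation, with no test: a gene is called separated where both WT libraries lie on the same side of all 3 PBS libraries and the means differ at least 2-fold. Of the 9264 genes at the level of 100 counts, 737 were separated as higher with WT exosomes (7.96%) and 964 as lower (10.4%). The median ratio of WT to PBS means over these genes was 1.03, and 4876 had the higher mean with WT and 4388 the lower. The separated shares fell as the level rose. Of the 2761 genes in the lowest level class, which starts at 100 counts, 322 were separated as higher and 496 as lower. Of the 447 genes of 10000 counts and above, 15 were separated as higher and 15 as lower. Counts in the gene lists below stand beside the shares over all 9264 genes, which were not matched to the level of each list.

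Many interferon response genes were higher with WT exosomes, and of those measured 0 were separated as lower. Of 31 measured effectors, the genes that interferons induce, 24 were separated as higher and 0 as lower, with a median ratio of 4.84. Among the interferon-induced GTPases it was 11 of 12 and 0, with a median ratio of 5.42, and among the regulators and sensors 7 of 26 and 0, with a median ratio of 1.66. Irf7, the transcription factor that amplifies the type I interferon response, passed the test among strongly expressed genes, with a log2 difference of 1.37 (SE 0.21, limma adjusted p = 0.0265). It stood at 32220 and 12585 counts in WT A and B and at 2219, 1848 and 853 in PBS A, B and C, a 13.7-fold ratio of means. Stat2, part of the complex that carries the type I interferon signal to the nucleus, was at 6363 and 5004 counts against 2050, 902 and 662. Its libraries were separated. Usp18, a protease that removes ISG15 from proteins and restrains the receptor, was at 9997 and 5003 counts with WT and at 2302, 1984 and 1074 with PBS. The receptor genes overlapped between the groups. Ifnar1 was at 2009 and 1629 counts with WT and at 1599, 1734 and 2031 with PBS, and Ifngr1 at 3247 and 2864 against 3340, 2465 and 3302. Irf1, at 6188 and 4292 counts against 8772, 4212 and 6088, overlapped as well.

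Promoters of 5 interferon-responsive genes that were separated are shown because they carry the letters GAAANNGAAA, the core of the element that the interferon-activated factors bind. Each is the 200 bases before the RefSeq start site on GRCm38.p6, on the strand of the gene, with the letters GAAANNGAAA, or their reverse TTTCNNTTTC, in capitals. They lie at chr4:156200819-156201018 (Isg15, minus strand), chr8:71537473-71537672 (Bst2, minus strand), chr19:34583329-34583528 (Ifit3, plus strand), chr11:48871421-48871620 (Irgm1, minus strand), chr2:122147487-122147686 (B2m, plus strand).
Isg15: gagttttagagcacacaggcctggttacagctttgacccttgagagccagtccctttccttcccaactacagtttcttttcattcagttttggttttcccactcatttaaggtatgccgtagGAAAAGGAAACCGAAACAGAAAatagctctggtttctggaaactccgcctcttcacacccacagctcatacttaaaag
Bst2: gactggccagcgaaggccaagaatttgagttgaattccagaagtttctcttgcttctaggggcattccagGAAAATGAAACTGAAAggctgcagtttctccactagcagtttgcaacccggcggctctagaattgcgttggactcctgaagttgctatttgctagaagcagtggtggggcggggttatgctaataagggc
Ifit3: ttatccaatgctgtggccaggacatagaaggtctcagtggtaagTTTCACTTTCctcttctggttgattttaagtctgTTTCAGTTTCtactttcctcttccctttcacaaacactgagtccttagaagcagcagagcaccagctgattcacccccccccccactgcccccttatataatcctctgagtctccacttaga
Irgm1: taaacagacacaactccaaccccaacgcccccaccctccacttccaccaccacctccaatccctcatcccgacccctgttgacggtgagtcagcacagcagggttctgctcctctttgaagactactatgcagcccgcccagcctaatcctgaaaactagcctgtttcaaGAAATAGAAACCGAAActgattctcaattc
B2m: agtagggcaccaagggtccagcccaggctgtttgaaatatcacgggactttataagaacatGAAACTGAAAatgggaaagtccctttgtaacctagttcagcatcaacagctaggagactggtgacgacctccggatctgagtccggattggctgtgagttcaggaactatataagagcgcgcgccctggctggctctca
The letters were found once upstream of B2m, starting at position -139 from the start site, and in overlapping copies at -130 and -124 upstream of Bst2, at -30 and -24 upstream of Irgm1, and at -78, -72 and -66 upstream of Isg15. In Ifit3 they start at -156 and -122, without overlap. In windows from 250 bases before to 50 after the start site, read on both strands, 1131 of 32851 promoters held them (3.44%), and 416 of the 10826 tested genes with a promoter did (3.84%). Of the GTPase genes with a listed promoter, 9 of 9 did, of the effectors 13 of 28 (46.4%), of the regulators and sensors 4 of 21 and of the class I genes 5 of 20 (25.0%). Over these 4 lists, among genes with a listed promoter only, 26 of the 45 separated as higher held the letters (57.8%), against 3 of the 31 at the level of 100 counts that were not (9.68%).

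Among the effectors, Isg15, the ubiquitin-like modifier, stood at 16280 and 6892 counts in WT A and B and at 1592, 1689 and 781 in PBS A, B and C, an 8.56-fold ratio of means. Bst2, or tetherin, which holds budding viruses and also vesicles to the cell surface, was at 13143 and 7257 counts against 1803, 1834 and 1649. Ifitm3, which blocks entry of viruses from endosomes, was at 176242 and 99669 counts against 52539, 40610 and 25556. None of these groups overlapped, and WT A was the higher WT library each time. Lgals3bp, a secreted galectin ligand, passed the test among strongly expressed genes, at 12943 and 15577 counts against 3492, 4340 and 2921 (log2 difference 0.79, SE 0.09, limma adjusted p = 0.00906). Ifit3, of the family that binds viral RNA, was at 20959 and 6040 counts with WT and at 3620, 1356 and 757 with PBS, and Rsad2, which encodes viperin, at 10773 and 3546 against 1443, 1119 and 674. The oligoadenylate synthetase family was mixed. Oasl2 was separated as higher, at 1875 and 1266 counts against 297, 143 and 370, and Oasl1 was high in WT A alone, at 1038 and 31.7 against 0, 53.5 and 186. The others were scarce, with Oas1a at 0 and 0 counts with WT and 15.4, 0 and 138 with PBS, and Oas3 at no more than 4.11 counts in any library. Ifi27 overlapped too, at 2600 and 1782 counts against 2422, 1971 and 2345.

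Among the GTPases, which attack the membranes of vacuoles that hold microbes, Irgm1 stood at 8066 and 3984 counts in WT A and B and at 604, 630 and 436 in PBS A, B and C, a 10.8-fold ratio of means. Gbp2 was at 7154 and 2093 counts against 688, 684 and 495, and Gbp7 at 11001 and 3008 against 1643, 973 and 1290. Gbp4 was the measured member that was not separated, at 2302 and 305 counts with WT and 1716, 1173 and 309 with PBS. WT A was higher than WT B for 12 of these 12 genes, for 23 of the 31 effectors and for 14 of the 26 regulators and sensors. The share over all genes was not counted. Near-identical copies such as Tgtp1 and Tgtp2, or Ifit3 and Ifit3b, may share reads, and their split between copies is uncertain.

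Class I antigen presentation genes, which show peptides from inside the cell to cytotoxic T cells, were separated as higher in 12 of 22 measured members and as lower in 0, with a median ratio of 2.08. B2m, the invariant light chain, stood at 161688 and 69800 counts in WT A and B and at 57447, 31551 and 33444 in PBS A, B and C. H2-K1, a classical heavy chain, was at 24892 and 18659 counts against 8986, 8709 and 3947, while the other classical chain H2-D1 was higher in both WT libraries by less than 2-fold, at 128210 and 98817 against 76045, 95513 and 28796. Tap1, which with Tap2 carries peptides into the endoplasmic reticulum, was at 6437 and 2796 counts against 878, 1468 and 454, and Psmb8, an immunoproteasome subunit, at 9025 and 4936 against 2845, 2652 and 1667. General chaperones of the same pathway showed no such gap, with Calr at 26351 and 12775 counts against 20168, 18269 and 17793. Of the 10 members in the test of strongly expressed genes 0 passed, with an adjusted p of 0.0615 for H2-K1 and 0.12 for B2m (limma). Nlrc5, which drives class I transcription, was listed at 0 in 4 libraries and at 9.57 counts in PBS B. Reads of the near-identical H2-Q and H2-T genes may be split among copies. Choroid plexus markers were high in the same libraries as the interferon and class I genes (208098 counts or more against 7452 or less), as was the microglia sum (1188 and 4207 against 1063 or less), and their part in these differences was not tested.

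**Figure D4:**
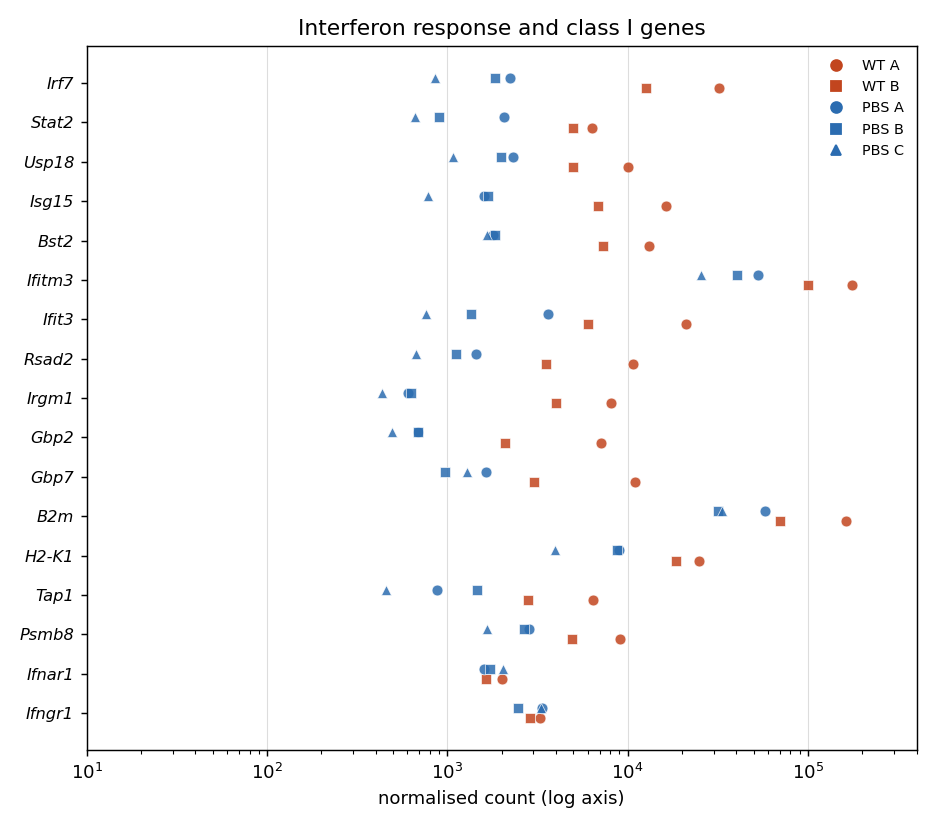
Normalised counts per library, on a log axis, of interferon regulators, effectors and GTPases, class I genes and the receptor genes Ifnar1 and Ifngr1. Orange points are WT libraries and blue points PBS libraries, and the shapes stand for the letters. WT A lies to the right of WT B for each gene drawn, both lie to the right of all PBS libraries from Irf7 to Psmb8, and the receptor genes overlap.

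Some genes of prostaglandin synthesis and some chemokines were higher with WT exosomes. Ptgs2, which encodes cyclooxygenase-2, the inducible enzyme of prostaglandin synthesis, stood at 67751 and 50601 counts in WT A and B and at 23008, 22767 and 17210 in PBS A, B and C. It passed the test among strongly expressed genes (log2 difference 1.02, SE 0.15, limma adjusted p = 0.0265). Cxcl2, a neutrophil chemoattractant, passed as well, at 31301 and 24532 counts against 11264, 11881 and 8676 (log2 difference 0.77, SE 0.12, limma adjusted p = 0.0265). Lcn2, a lipocalin that binds bacterial siderophores and is induced in inflamed endothelium, was at 17013 and 41221 counts against 4275, 4842 and 3032 (log2 difference 1.27, SE 0.21, limma adjusted p = 0.03). WT B was the higher library for Lcn2 and WT A for Ptgs2 and Cxcl2.

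Of the 18 measured cytokine and prostaglandin genes, 8 were separated as higher and 0 as lower, and of the 16 chemokines and chemokine receptors 4 and 1. Csf3, which encodes granulocyte colony-stimulating factor, was at 114174 and 63846 counts with WT and at 46419, 36332 and 22403 with PBS. Pla2g4a, the phospholipase that frees arachidonic acid, was at 5516 and 1573 counts against 506, 1545 and 1280, separated by a narrow margin. Margins were also narrow for Csf2, at 629 and 230 counts against 93.6, 198 and 16.5. The same held for Ptgis, at 404 and 747 against 52.4, 369 and 47.4. Ptges, the synthase downstream of Ptgs2, overlapped, at 18737 and 14449 counts against 16925, 17547 and 14841. Cxcl5 was at 2623 and 4651 counts against 4.63, 358 and 255, Ccl5 at 2904 and 1359 against 239, 82.0 and 43.7, and Ackr1, the venous chemokine-binding receptor, at 12318 and 23374 against 5548, 6842 and 1727. Cxcl12, the chemokine that holds leukocytes at the vessel wall, was the 1 separated as lower, at 7860 and 1897 counts against 25474, 8281 and 14487. Il6 did not separate, at 4308 and 25623 counts with WT and 3319, 12164 and 9612 with PBS, nor did Ccl2, at 7626 and 17421 against 2480, 9634 and 6021. In both of these WT B was high and WT A lay among the PBS libraries. Il1b, counted among the 8 separated as higher, was at 6.35 counts in WT A and 1224 in WT B and at 0 in the PBS libraries. WT B was also the library with Itgam and C1qb. The choroid plexus sum was 208098 counts or more with WT and 7452 or less with PBS. The part of either in these differences was not tested.

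Of 20 subunits and feedback targets of NF-kB, the factor behind many of these genes, 2 were separated as higher and 0 as lower. Over all 9264 genes 7.96% were separated as higher and 10.4% as lower. Whether this list differs from those shares was not tested. Nfkbia, its first inhibitor, overlapped at 70183 and 54513 counts with WT and 95260, 51546 and 62836 with PBS, and Tnfaip3, a feedback inhibitor, was lower by less than 2-fold, at 5350 and 7759 against 17049, 7765 and 11830. Of 13 leukocyte adhesion genes 1 was separated as higher and 2 as lower. Vcam1, which binds the integrin of lymphocytes and monocytes, stood at 5853 and 7256 counts against 3248, 932 and 858. Icam1 overlapped, at 31106 and 21574 counts against 28581, 12764 and 15902, and Selp, P-selectin, was high in WT B, at 3911 and 29584 counts against 1619, 4719 and 3378. Jam2, a junctional adhesion molecule, was lower, at 1138 and 1318 counts against 3321, 3283 and 3129.

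Plasminogen activators moved in opposite directions. Plat, tissue-type plasminogen activator, which endothelial cells release into blood, was lower with WT exosomes, at 27475 and 27248 counts in WT A and B and 62181, 57064 and 56037 in PBS A, B and C. It passed the test among strongly expressed genes, with a log2 difference of -0.77 (SE 0.12, limma adjusted p = 0.0265), and PBS held 2.14 times the WT mean. Plau, urokinase-type plasminogen activator, which acts at cell surfaces during invasion and remodelling, was at 23922 and 13575 counts against 624, 1380 and 606, a 21.6-fold ratio of means. Its log2 difference was 1.41 (SE 0.14, 95% interval 1.06 to 1.76), with a limma adjusted p of 0.117 over all genes and 0.0299 over genes with a mean of at least 100 counts. Plaur, the urokinase receptor, overlapped, at 37597 and 24547 counts against 35571, 40505 and 31148. F3, tissue factor, which starts coagulation, was lower, at 458 and 1283 counts against 1645, 1717 and 2515. The 17 measured genes of this list split evenly, 2 separated as higher and 2 as lower.

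Matrix genes included 6 of 29 separated as higher and 0 as lower. Col18a1, the source of endostatin, passed the test among strongly expressed genes, at 9131 and 10102 counts against 3079, 4095 and 3833 (log2 difference 0.50, SE 0.08, limma adjusted p = 0.0265). Mmp3, stromelysin, was at 3809 and 17891 counts against 180, 942 and 73.9, and its inhibitors Timp1 and Timp2 were separated too, Timp2 at 1186 and 2157 counts against 21.4, 49.3 and 127. The main basement membrane collagen Col4a1 was lower in both WT libraries than in all 3 PBS libraries but by less than 2-fold, at 54673 and 57781 counts against 87090, 66588 and 102532. Of 7 measured hyaluronan genes, among them the hyaluronidases and the receptors Cd44 and Lyve1, 0 were separated. Cemip2, the relative of Cemip that these cells did express, overlapped, at 2824 and 4104 counts against 3068, 2517 and 3596.

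Among genes of the blood-brain barrier, 6 of 20 transporters were separated as lower and 1 as higher. Of 18 junction and vesicle genes, 3 were separated as lower and 1 as higher. Lower was also the more frequent direction over all 9264 genes counted for separation, with 964 lower (10.4%) and 737 higher (7.96%). Whether either list exceeds these shares was not tested. The median ratios were 0.640 for the transporters and 0.741 for the junction and vesicle genes, against 1.03 over the 9264 genes. Slc16a1, the monocarboxylate transporter for lactate and ketone bodies, stood at 942 and 3755 counts in WT A and B and at 9023, 8423 and 7670 in PBS A, B and C. Slc40a1, ferroportin, the iron exporter, was at 13504 and 13668 counts against 45546, 19125 and 45564. Slc1a1, a glutamate transporter, was at 5227 and 5514 counts against 15399, 6894 and 14343, and Slc39a10, a zinc importer, at 1482 and 1039 against 6278, 3053 and 4449. Slc2a1, the glucose transporter GLUT1, was lower in both WT libraries but by less than 2-fold, at 48726 and 40299 counts against 79679, 65587 and 67040 (log2 difference -0.51, SE 0.14). Abcb1a, the main drug efflux pump, overlapped, at 4751 and 5070 counts against 6078, 4901 and 5999, and Abcb1b, its close copy, was the 1 transporter separated as higher, at 2497 and 3491 against 1368, 1953 and 1051.

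At the junctions, Ocln, the tight junction protein occludin, stood at 2239 and 1683 counts with WT and at 5894, 5372 and 3716 with PBS. Mfsd2a, the lipid transporter that restrains vesicle transport across the barrier, was scarce, at 23.2 and 358 counts against 1160, 538 and 604. Plvap, the diaphragm protein of leaky vessels, was separated as higher, at 6973 and 2608 counts against 1437, 1473 and 371. Cldn5, the chief claudin of brain endothelium, did not separate, at 62276 and 58368 counts against 65907, 75757 and 58331, and neither did Cdh5, VE-cadherin, at 24657 and 18411 against 22718, 21162 and 22748. The fit over strongly expressed genes held 9 of the transporters and 8 of the junction and vesicle genes, and the others were expressed too weakly to enter it. None of those in it passed, and the smallest adjusted p among those named was 0.0668 for Slc16a1 (limma). WT B held more pericyte marker counts than the other libraries and WT A fewer, and the choroid plexus sum was 208098 counts or more with WT and 7452 or less with PBS. Their part in the barrier differences was not tested.

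Of the signalling genes of sprouting vessels, 18 of 24 VEGF, angiopoietin and tip cell genes and 11 of 13 Notch genes had the lower mean with WT exosomes, most by less than 2-fold or with overlapping libraries. Over all 9264 genes at the level of 100 counts, 4388 had the lower mean. Kdr, the main receptor for VEGF, stood at 4846 and 12544 counts in WT A and B and at 23448, 15010 and 21665 in PBS A, B and C. Angpt2, the angiopoietin that loosens vessels, was lower by less than 2-fold, at 77134 and 75991 counts against 131220, 94255 and 119041. Vegfa was the member of this list separated as higher, at 1732 and 1152 counts against 450, 215 and 430. Of the 24 measured VEGF, angiopoietin and tip cell genes, 1 was separated in each direction. Notch genes had 4 of 13 separated as lower and 0 as higher: the ligand Jag1 was at 6254 and 4492 counts against 10711, 8974 and 12840, the arterial target Efnb2 at 1389 and 628 against 3739, 2183 and 2466, and the feedback target Nrarp at 470 and 484 against 1526, 1906 and 1919. The ligand Dll4 was lower by less than 2-fold, at 22783 and 14055 counts against 36779, 25752 and 29129.

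Wnt response genes, which maintain the barrier through beta-catenin, had 5 of 20 separated as lower and 2 as higher. Nkd1, a feedback inhibitor and direct target, was at 0 and 190 counts with WT and at 2036, 1078 and 2296 with PBS. Apcdd1 was at 573 and 310 counts against 2085, 1469 and 2603, and Notum was listed at 0 in both WT libraries and stood at 425, 171 and 401 in the PBS libraries. Axin2, the most used reporter of the pathway, overlapped, at 0 and 531 counts against 468, 248 and 291. Targets of YAP and SRF, which respond to stretch and stiffness, had 6 of 17 separated as lower and 1 as higher. Ccn1 was at 6362 and 5437 counts against 36895, 9611 and 18251, Ccn2 at 1954 and 3276 against 8941, 4618 and 5693, and Nedd9, a focal adhesion scaffold, at 3391 and 3433 against 14584, 7004 and 11238. PBS B lay nearest to the WT libraries for all 3. Tgfbr1, the type I receptor for TGF-beta, was lower, at 407 and 536 counts against 2133, 1738 and 2184, in a list with 1 of 22 separated as lower and 3 as higher. None of the genes in this and the preceding paragraph passed the test over all genes (limma). The test among strongly expressed genes held 13 VEGF, angiopoietin and tip cell genes and 4 Notch genes. It also held 1 Wnt, 5 YAP and SRF and 7 TGF-beta and BMP genes. None of these passed, and the other genes were expressed too weakly to enter it.

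Zfand2a and Klhl21 were lower with WT exosomes. Zfand2a, an arsenite-inducible partner of the proteasome and a heat shock target, passed the test among strongly expressed genes, at 14158 and 11488 counts in WT A and B and 38221, 30017 and 37087 in PBS A, B and C (log2 difference -0.85, SE 0.12, limma adjusted p = 0.0265). Klhl21, a substrate adaptor of a ubiquitin ligase, passed as well, at 2745 and 2226 counts against 7852, 7981 and 6282 (log2 difference -0.49, SE 0.08, limma adjusted p = 0.03). Of 18 heat shock chaperones 1 was separated as lower and 2 as higher. Hspa1a, the inducible HSP70, was at 7060 and 3664 counts with WT, while the PBS libraries spread from 9175 in PBS B to 82374 in PBS A, with 42601 in PBS C. Its near-identical copy Hspa1b overlapped, at 21359 and 6851 counts against 152493, 16776 and 72140, and reads may be split between them. The unfolded protein list had 1 of 23 separated as higher and 0 as lower, and its sensor target Hspa5 overlapped, at 55543 and 44843 counts against 64926, 46633 and 51913. Immediate early genes had 1 of 19 separated as higher and 2 as lower, with Egr1 at 9426 and 5490 counts against 3324, 3169 and 4174 and Atf3 at 1686 and 3137 against 10864, 3360 and 6820.

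Among markers of vessel segments, 4 of 20 were separated as higher and 5 as lower. Those higher were Lcn2 and Ackr1, given above, Nr2f2, the venous transcription factor, at 616 and 315 counts against 38.2, 196 and 105, and the arterial marker Mgp, matrix Gla protein, at 1918 and 2056 against 204, 551 and 59.2. Arterial Gja4, connexin 37, was higher by less than 2-fold, at 1596 and 2518 counts against 850, 1416 and 1117, and venous Slc38a5 and Vwf overlapped, so neither segment's markers all lay on the same side. The arterial gene Efnb2 and the capillary genes Slc16a1, Mfsd2a, Cxcl12 and Itm2a were separated as lower, with Itm2a at 610 and 3424 counts against 5121, 4585 and 4100. Prom1, a cholesterol-binding protein of membrane protrusions, passed the test among strongly expressed genes as lower, at 7437 and 5152 counts in WT A and B and 15310, 14885 and 16385 in PBS A, B and C (log2 difference -0.59, SE 0.10, limma adjusted p = 0.03). Foxo1, a restraint on endothelial growth, was separated as lower, at 3803 and 5636 counts against 12963, 7340 and 12344, and Nr2f2 as higher, of 20 endothelial transcription factors. Erg, which maintains endothelial identity, was higher by less than 2-fold, at 2842 and 1507 counts against 1170, 1138 and 1153, and its relative Fli1 overlapped, at 2282 and 1858 against 2425, 1937 and 2225. Gja1, connexin 43, listed here among the astrocyte markers, was lower at 16454 and 7924 counts against 40604, 18589 and 24820, while Clu, on the same list, was higher, at 8734 and 7993 against 81.7, 438 and 0. Aldh1l1 and Ntsr2 were listed at 0 in all 5 libraries.

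Housekeeping groups were close between the conditions. Of 34 ribosomal protein genes 0 were separated in either direction and 28 had the higher mean with WT, with a median ratio of 1.13. Over all 9264 genes at the level of 100 counts, 4876 had the higher mean and the median ratio was 1.03. Of 28 oxidative phosphorylation genes 0 were separated, with a median ratio of 1.11. Glycolysis and hypoxia genes had 4 of 22 separated as higher and 0 as lower, among them Eno1, enolase, at 14549 and 17408 counts in WT A and B and 6738, 9120 and 6878 in PBS A, B and C, and Tpi1, triosephosphate isomerase, at 8214 and 6863 against 3327, 4457 and 2115. Lipid genes had 7 of 24 separated as higher and 2 as lower. Scd2, a desaturase of fatty acids, was at 3156 and 2263 counts against 298, 498 and 360, and Apoe, the lipid carrier, at 8697 and 8878 against 2921, 1818 and 2894. Of the vesicle and lysosome genes 3 of 28 were separated as higher and 1, the protease Ctsl, as lower. Those higher were the tetraspanins Cd9 and Cd63, which are common on exosomes, and the protease Ctsz. Cd9 stood at 7060 and 6412 counts against 2834, 2990 and 1438, and Cd63 at 6912 and 9695 against 3000, 3724 and 4202, while the third tetraspanin of exosomes, Cd81, overlapped at 25109 and 18716 against 29837, 27064 and 21621. Whether the lipid and tetraspanin differences relate to the exosomes given or to the choroid plexus RNA was not tested. Of 16 measured cell cycle genes 2 were separated as higher and 3 as lower. Those higher were Cdk1, the mitotic kinase, at 695 and 152 counts against 38.3, 53.4 and 69.1, and Ccnd1, cyclin D1, at 3701 and 5465 against 2355, 2904 and 1171. Those lower were Mcm4 and Mcm5, subunits of the replicative helicase, and the inhibitor Cdkn1b, with Mcm4 at 237 and 502 counts against 755, 947 and 896. The proliferation markers Mki67 and Top2a were listed at 0 in all 5 libraries.

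**Figure D5:**
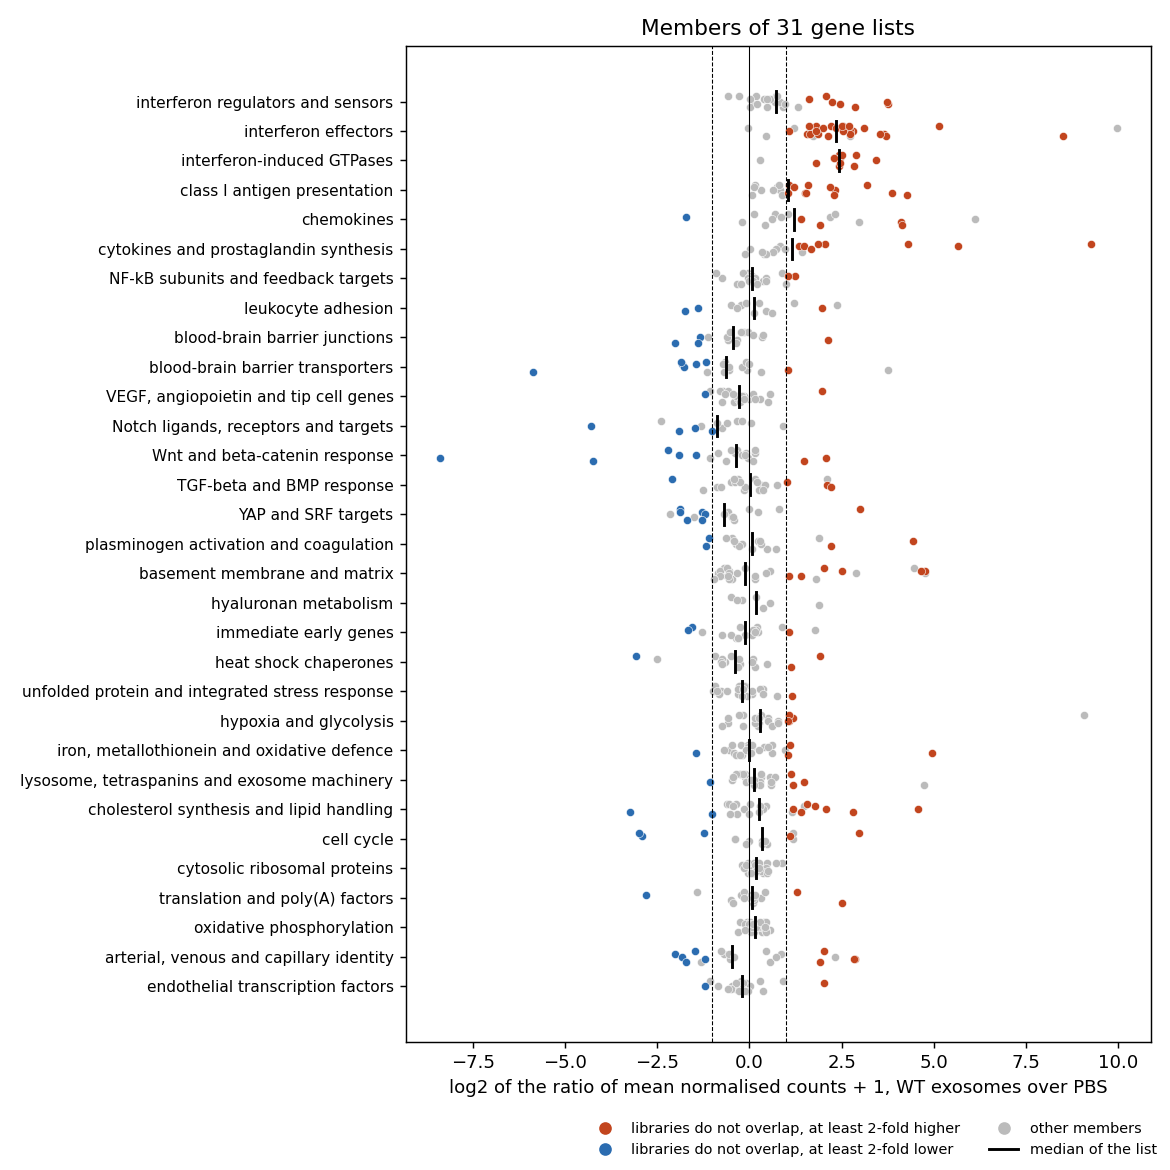
Log2 ratio of mean normalised counts plus 1, WT exosomes over PBS, for each member with a mean of at least 100 counts of 31 gene lists. Orange and blue points are genes whose libraries do not overlap and whose means differ at least 2-fold, grey points the other members, black bars the list medians, and dashed lines mark 2-fold. The interferon lists and class I genes lie to the right, with 24 of 31 effectors and 11 of 12 GTPases in orange, and the ribosomal and oxidative phosphorylation genes sit close to 0.

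The other genes of smallest p included Enpp2 and Ecrg4 of the choroid plexus list. Enpp2, autotaxin, the secreted enzyme that makes lysophosphatidic acid and is abundant in choroid plexus, stood at 45079 and 32229 counts in WT A and B and at 2349, 2657 and 889 in PBS A, B and C (log2 difference 1.88, SE 0.14, limma adjusted p = 0.0642 over all genes and 0.000533 over strongly expressed genes). Clu, given above, encodes clusterin, a secreted chaperone. Igfbp2, a carrier of insulin-like growth factors made by choroid plexus and meninges, was at 2710 and 3837 against 0, 64.5 and 0, and Ecrg4, a choroid plexus peptide precursor, at 3531 and 2442 against 42.4, 52.5 and 0. All 3 passed in the test of genes with a mean of at least 100 counts (limma adjusted p of 0.0228, 0.0299 and 0.0299), as did Cfb, complement factor B, at 3397 and 3980 counts against 468, 238 and 202 (0.0344), and Spint2, an inhibitor of serine proteases in epithelium, at 2380 and 2532 against 56.6, 162 and 124 (0.0344). On the lower side Map4k2, a kinase of the stress cascade, was listed at 0 in both WT libraries and stood at 3113, 2143 and 2294 counts with PBS, and Ptpn14, a phosphatase that binds YAP, was at 0 and 35.2 against 2452, 1962 and 2153, with a limma adjusted p of 0.0299 for each in that test. Altogether 115 genes were listed at 0 in both WT libraries with at least 100 counts in each PBS library, and 6 the other way round. A further 833 were at 0 in exactly 1 WT library with at least 100 counts in each PBS library. Conversely, 88 were at 0 in exactly 1 PBS library with at least 100 counts in each WT library. The mean difference in genes above the floor was -1720.7, and the part of that gap in these genes was not tested. Zfp281, a zinc finger repressor, was at 151 and 205 counts against 2087, 2959 and 2734, with an adjusted p of 0.0598 in that test. The remaining genes among the 12 of smallest p on each side did not pass either. On the higher side they were Gsta1, a glutathione transferase, at 1624 and 1369 counts against 0, 26.3 and 0, and Sulf1, a sulfatase that trims heparan sulfate, at 1144 and 1641 against 18.6, 13.6 and 0. On the lower side Wdr20, Zfp46, Rnf24 and Med14, a subunit of the Mediator complex, were listed at 0 in both WT libraries and held 744 to 1503 counts in each PBS library. Map4k3, a kinase related to Map4k2, was at 852 and 1724 counts against 5940, 4929 and 5574.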

How the data were processed

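RNA of sorted brain endothelial cells was sequenced. The authors deposited variance-stabilised log2 values for 20555 genes and 10 libraries, a scale that compresses changes of weakly expressed genes. Per the submitters' processing notes, the authors' tools were Salmon 0.10.0, DESeq2 1.18.1, Trimmomatic 0.38 and FastQC 0.11.7, and the build was GRCm38.p6 (roles not stated). Normalised counts (signal) were recovered by inverting the deposited values, and their means matched 362 means in the authors' deposited table (ratio 1.0000). Reads per library were estimated from the steps between low values, and 72.5 to 87.1% of values were whole within 0.05. The 2 WT and 3 PBS libraries, grouped by label, were fitted with limma 3.58.1 (R 4.3.3, trend) over 13507 varying genes with Benjamini-Hochberg adjustment at 0.05; limma was tested on simulated data. The members and gene lists were chosen with earlier results of these data known. Genes named are the 12 of smallest p on each side with 100 counts or more, list members of largest difference or defining role, sort markers and Cemip. The small number of libraries limits precision. Other libraries and microglia were left out as outside the comparison. Some results are not reported here.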

Additional observations from a re-analysis of the deposited data

How the results depend on the processing

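Counts of genes past the limma threshold depended on the genes tested and on single libraries. Against 1 gene over all varying genes, 12 passed among strongly expressed genes and 11 among genes with a mean of at least 100 counts. With log2 of the count plus 1, 10 or 50, with median scaling, or without a trend, 0 passed, with 1914, 1899 and 1915 genes at an unadjusted p under 0.05 for the 3 log scales. Leaving out 1 library gave 0 to 107 genes, the 107 without WT A. With the letter as a replicate block 0 passed over all genes, and 64 passed among strongly expressed genes, an alternative chosen after seeing the data; the labels do not say that letters pair samples. Among strongly expressed genes, leaving out 1 PBS library gave 2 to 51 genes: 3 without PBS A, 51 without PBS B and 2 without PBS C. The 1701 genes separated by at least 2-fold became 883 with a level of at least 500 counts, 1051 with a separation of at least 3-fold, 2215 with a level of at least 20 counts, 2509 with at least 1.5-fold and 1707 with median scaling, and leaving out 1 library gave 1787 to 3814. The difference in genes above the floor was -1642.3 at 10 counts or more and -2406.7 to -1034.7 without 1 library. For the separated genes, a stricter level or fold can only lower the count and a looser one can only raise it. Leaving out 1 library asks for non-overlap of fewer libraries. The causes of the other shifts were not tested. Of the 36 genes examined by name whose groups overlapped, for which no direction is stated, 24 changed sign under at least 1 alternative.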
